A study of Mus musculus with 8 samples.

Results

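A set of 10 genes of YAP/TAZ signalling was followed in the kidneys of mice that the labels describe as injured with aristolochic acid. They are Ccn1 and Ccn2 (formerly Cyr61 and Ctgf), Ankrd1, Amotl2, Ajuba, Lats2, Crim1, Yap1, Wwtr1 and Tead1, that is 10 of the 42256 genes in the count table. They were chosen by name, as textbook components and targets of the pathway, after results of the same genotype contrast were known, among them the difference of Ccn2. Their levels and fold changes are therefore given as a description and not as a test.

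RNA was measured by sequencing in whole kidneys of 8 adult male mice (strain Mixed 129S1/Sv x C57BL/6), 4 labelled CDH11-/- and 4 labelled CDH11+/+, with 1 library per mouse. Mice of both labels received aristolochic acid, a plant toxin that damages the proximal tubule, at 3 mg/kg on each of 5 days, and kidneys were taken 2 weeks after the last dose. The title of the series names Unx/AngII injury instead, and the sample labels and design text, which give aristolochic acid, were followed. The groups share this injury and no uninjured kidney was analysed here. The labels do not say how the CDH11 allele was disrupted. Libraries held 12966177 to 18539479 counts under the label CDH11-/- and 10675309 to 13885009 under CDH11+/+. Every member had at least 597 counts in every library. Counting error alone gives a coefficient of variation of 1.047% to 2.04% for Ccn2 and of 2.15% to 2.77% for Yap1, whose spread between mice was 4.37% under CDH11-/- and 4.24% under CDH11+/+.

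Libraries are called by their label because the targeted gene did not follow it. Cdh11 was at 89.9, 91.3, 113 and 117 CPM (counts-per-million after TMM scaling of the libraries) in the libraries labelled CDH11-/-, against 75.6, 58.0, 61.7 and 59.0 CPM in those labelled CDH11+/+. CDH11+/+ replicate 1 also stood apart on the second principal component of the 8 libraries, at 41.0 where the others ranged from −26.1 to 9.92. Of the 44 markers of 7 kidney cell types, 0 were at 0 counts in all libraries. Very few counts would meet that bar, so it does not identify the tissue.

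YAP and its relative TAZ, the product of Wwtr1, are transcriptional coactivators that cannot bind DNA themselves. They act through the TEAD factors, and the kinases LATS1 and LATS2 keep them out of the nucleus when the Hippo cascade is active. Cell contacts, matrix stiffness and the actin skeleton feed into this cascade. Activity is set largely by phosphorylation and location of the proteins, which RNA levels do not measure. Among the target genes, Ccn1 and Ccn2 encode secreted matrix-associated proteins, while Lats2, Amotl2 and Ajuba encode regulators that act back on the pathway. In kidney, Ccn2 is widely used as a readout of fibrosis and is also a target of TGF-beta.

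The TEAD factors recognise GGAATG, and members that share a regulator can be compared at that sequence. RefSeq promoter windows of GRCm38.p6 (250 bases before to 50 after a transcription start) were found for 8 of the 10 genes. The windows of Ccn2 and Tead1 were not used here. GGAATG, searched on both strands, so that it reads CATTCC on the other strand, occurred in a window of 8 of the 8 genes. By window it occurred in 9 of 10, and a window of Lats2 (chr14:57734369-57734668) held 0 copies. Among all 27025 genes with a window it occurred in 16.6%, and among the 32851 windows in 14.7%. Ankrd1 and Ajuba had 2 copies each, which 1.57% of all genes reach. A match is a description of the letters and not evidence of binding. The copies are shown with 12 bases on each side, 5′ to 3′ on the strand of the gene, with the motif in capitals, to let the flanks be compared.
Ccn1 (chr3:145650071-145650100, minus strand, 103 bases before the start): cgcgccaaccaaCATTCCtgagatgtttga
Ankrd1 (chr19:36119950-36119979, minus strand, 123 bases before): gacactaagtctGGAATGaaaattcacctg
Ankrd1 (chr19:36120037-36120066, minus strand, 210 bases before): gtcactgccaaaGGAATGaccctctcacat
Amotl2 (chr9:102717727-102717756, plus strand, 65 bases before): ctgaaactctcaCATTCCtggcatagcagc
Ajuba (chr14:54577808-54577837, minus strand, 164 bases before): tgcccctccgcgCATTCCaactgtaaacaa
Ajuba (chr14:54577830-54577859, minus strand, 186 bases before): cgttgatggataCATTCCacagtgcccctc
Lats2 (chr14:57746102-57746131, minus strand, 4 bases after): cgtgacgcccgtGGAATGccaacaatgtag
Crim1 (chr17:78200157-78200186, plus strand, 79 bases before): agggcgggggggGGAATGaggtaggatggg
Yap1 (chr9:8004720-8004749, minus strand, 141 bases before): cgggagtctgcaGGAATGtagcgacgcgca
Wwtr1 (chr3:57576029-57576058, minus strand, 136 or 170 bases before its annotated starts): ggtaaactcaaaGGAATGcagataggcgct
The promoter of Ccn1, whose levels set the labelled genotypes apart most clearly relative to its error, is given whole up to the start (chr3:145649986-145650235, minus strand), with the same motif in capitals.
Ccn1 promoter: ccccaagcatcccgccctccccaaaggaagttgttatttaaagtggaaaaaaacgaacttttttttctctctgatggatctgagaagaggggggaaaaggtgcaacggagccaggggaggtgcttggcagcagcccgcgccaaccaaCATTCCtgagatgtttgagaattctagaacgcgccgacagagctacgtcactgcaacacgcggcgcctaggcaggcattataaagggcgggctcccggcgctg

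The same motif was counted in the windows of the other pathway genes. It occurred in 4 of 6 other TEAD and Vgll genes with a window, 4 of 17 Hippo kinase and upstream genes, 3 of 14 other YAP targets, 4 of 14 serum response and immediate early genes, and 0 of 1 other CCN gene.

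The comparison of the labelled genotypes asked how the 10 genes stand after injury in mice labelled as lacking cadherin-11, an adhesion molecule of mesenchymal cells. Ccn1 and Ccn2 were 1.88 and 1.89 times as high, by their means, in the libraries labelled CDH11-/- as in those labelled CDH11+/+. Ankrd1 and Amotl2 were 1.5 and 1.35 times as high. Yap1, Wwtr1, Ajuba and Crim1 stayed within 0.99 to 1.08 times, and Tead1 and Lats2 lay between, at 1.12 and 1.19 times. Of the 10 genes, 9 had a positive log2 fold change (median 0.21), where 47.8% of the 15852 genes tested had one (median −0.01). The libraries of the 2 labels did not overlap in 3 of the 10 (Ccn1, Ccn2 and Amotl2, all higher under CDH11-/-), where 3.59% of genes tested were higher without overlap. In the edgeR quasi-likelihood fit over all genes 2 of the 10, Ccn1 and Amotl2, were past a Benjamini-Hochberg adjusted p of 0.05 and higher, where 0.372% of genes were (0.719% in either direction and 0.347% lower). DESeq2 called 4 of the 10, with Ccn2 and Ankrd1 added, where it called 2.79% of all genes in either direction. With limma-voom 5 were called, with Lats2 as well, where 4.28% of all genes were. In edgeR the count was 5 without CDH11+/+ replicate 1, where 6.25% of all genes passed in either direction. It was 1 without CDH11+/+ replicate 2 (0.193% of all genes) or 4 (0.162%), or without CDH11-/- replicate 1 (0.238%) or 3 (0.256%). Because the genes were chosen with this contrast known, nothing is read from these counts.

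**Figure D1:**
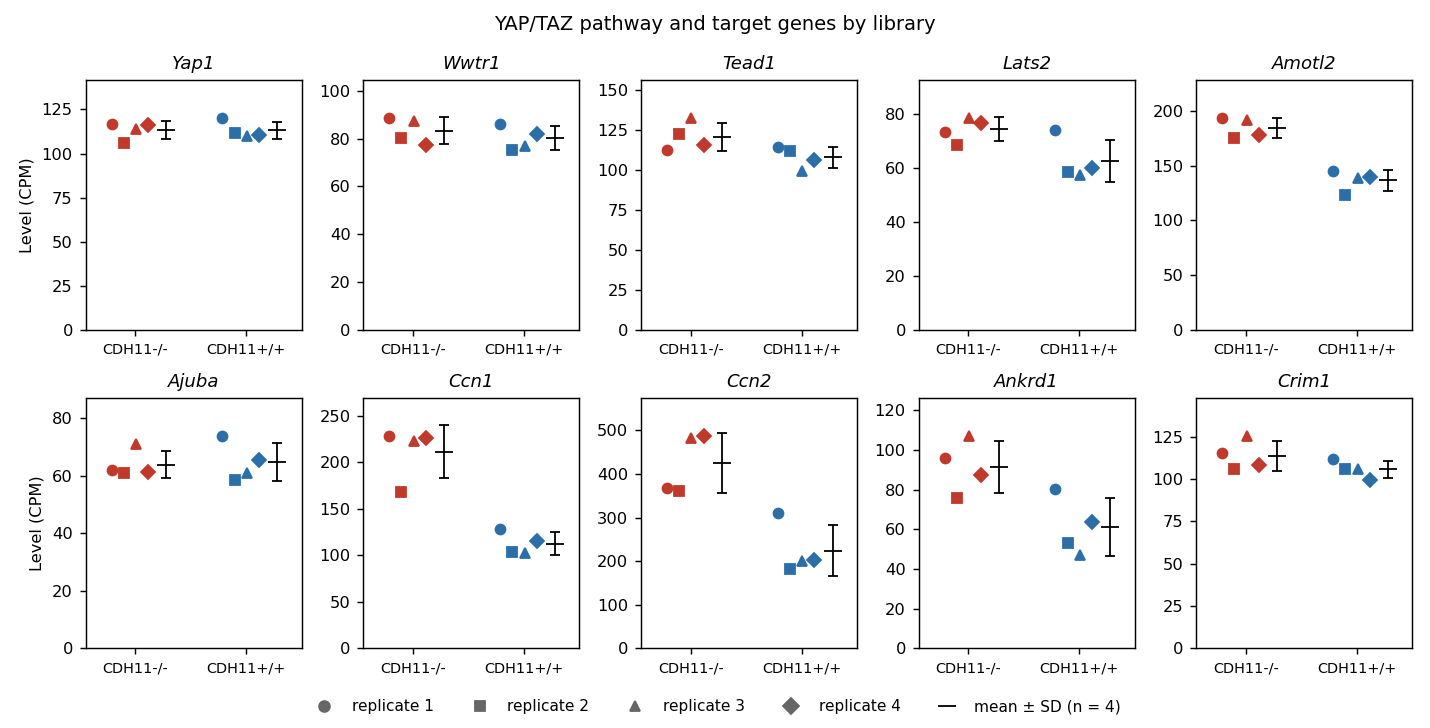
Level of each of the 10 genes in counts-per-million (CPM, linear axis from 0) in the 4 libraries labelled CDH11-/- (red) and the 4 labelled CDH11+/+ (blue), with the mean and SD of each group in black. The groups separate for Ccn1, Ccn2 and Amotl2, and the points of Yap1, Wwtr1 and Ajuba overlap between the labels.

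The coactivators themselves had nearly equal means under both labels. Yap1 (ENSMUSG00000053110, chromosome 9, 7931999 to 8004596 of GRCm38) was at 117, 106, 114 and 116 CPM in replicates 1 to 4 labelled CDH11-/-, against 120.2, 112, 109.8 and 111 CPM in those labelled CDH11+/+. The groups overlapped throughout, with means of 113 ± 4.95 and 113 ± 4.79 CPM (SD, n = 4 each). The log2 difference was 0.00 ± 0.06 (SE), the smallest SE among the 10. Wwtr1 (ENSMUSG00000027803, chromosome 3, 57455649 to 57575910), which encodes TAZ, was at 88.7, 80.1, 87.3 and 77.4 CPM in libraries labelled CDH11-/- and at 86.3, 75.3, 77.0 and 82.0 CPM in those labelled CDH11+/+. These ranges overlapped too, with a log2 fold change of 0.06 ± 0.07 (SE).

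Tead1 (ENSMUSG00000055320, chromosome 7, 112679318 to 112906807), which encodes the DNA-binding partner of both coactivators, was at 113, 122, 133 and 115 CPM under CDH11-/- and 114, 112, 99.4 and 106 CPM under CDH11+/+. Of the CDH11-/- libraries 3 lay above every CDH11+/+ library and replicate 1 did not. The log2 fold change was 0.16 ± 0.07 (SE).

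The regulators that act back on the pathway were unlike one another. Amotl2 (ENSMUSG00000032531, chromosome 9, 102716672 to 102733418), an angiomotin that binds YAP at cell junctions, was at 194, 176, 191 and 178 CPM in libraries labelled CDH11-/-, against 145, 123, 139 and 140.0 CPM in those labelled CDH11+/+. The lowest library labelled CDH11-/- thus lay above the highest labelled CDH11+/+. The mean was 185 ± 9.22 CPM under CDH11-/- and 137 ± 9.44 CPM under CDH11+/+ (SD, n = 4 each). On the log2 scale the difference was 0.43 ± 0.07 (SE). Lats2 (ENSMUSG00000021959, chromosome 14, 57689662 to 57758388), a kinase that inhibits YAP and TAZ, was at 73.5, 68.6, 78.5 and 76.7 CPM under CDH11-/- and 74.0, 58.3, 57.5 and 60.1 CPM under CDH11+/+, so CDH11+/+ replicate 1 reached the level of the other label. Its log2 fold change was 0.25 ± 0.09 (SE), and 0.35 without that library. Ajuba (ENSMUSG00000022178, chromosome 14, 54567472 to 54577558), a LIM protein that restrains the LATS kinases, was at 62.1, 61.1, 71.1 and 61.4 CPM under CDH11-/- and 73.7, 58.7, 61.1 and 65.4 CPM under CDH11+/+. The groups overlapped, with a log2 fold change of −0.02 ± 0.08 (SE) that took either sign over the alternative fits, between −0.06 and 0.06.

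Among the target genes, Ccn1 (ENSMUSG00000028195, chromosome 3, 145646976 to 145649981), which encodes a secreted ligand of integrins, was at 228, 168, 223 and 226 CPM in libraries labelled CDH11-/-, against 128, 103, 103 and 116 CPM in those labelled CDH11+/+. Replicate 2 labelled CDH11-/- was well below its group and still above every library of the other label. The mean was 211 ± 28.8 CPM under CDH11-/- and 112 ± 12.1 CPM under CDH11+/+ (SD, n = 4 each). On the log2 scale they differed by 0.91 ± 0.11 (SE). Ccn2 (ENSMUSG00000019997, chromosome 10, 24595442 to 24598683), a secreted modulator of growth factors and matrix, was at 368, 361, 481 and 486 CPM under CDH11-/- and 311, 183, 200.5 and 203 CPM under CDH11+/+. The groups did not overlap, but CDH11+/+ replicate 1 lay closer to the lowest CDH11-/- library than to any library of its own group. The mean was 424 ± 68.8 CPM under CDH11-/- and 224 ± 58.6 CPM under CDH11+/+ (SD, n = 4 each), and they differed by 0.92 ± 0.19 (SE) on the log2 scale. Without CDH11+/+ replicate 1 it was 1.13, and that of Ccn1 was 0.99.

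Ankrd1 (ENSMUSG00000024803, chromosome 19, 36111961 to 36120099), an ankyrin repeat protein induced by strain in muscle cells, was at 96.0, 76.0, 107 and 87.5 CPM under CDH11-/- and at 80.2, 53.3, 47.2 and 63.8 CPM under CDH11+/+. The groups overlapped through CDH11+/+ replicate 1 and CDH11-/- replicate 2. The log2 fold change was 0.59 ± 0.17 (SE), and 0.75 without CDH11+/+ replicate 1. Crim1 (ENSMUSG00000024074, chromosome 17, 78200248 to 78376592), a membrane protein with cysteine-rich repeats that binds growth factors, was at 115, 106, 125 and 108 CPM under CDH11-/- and 112, 106, 106 and 99.5 CPM under CDH11+/+. Its groups overlapped, with a log2 fold change of 0.11 ± 0.07 (SE).

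Exons of 4 of the 10 genes overlap another gene model, and the labels do not say if strand was used in counting. Ccn2 shares 23.2% of its exon bases with the antisense model Gm15270, which held at most 1.11 CPM. How reads of the shared bases were assigned is not stated. Lats2 shares 42.4% with Gm49361 on its own strand, a model for which the counts give no level. How far this overlap affects the level of Lats2 was not tested. Crim1 shares 2.05% with Fez2 and Yap1 1.25% with Gm20416, both on the opposite strand.

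Corrected for exon length, Ccn2 and Ccn1 led under both labels and Yap1 came eighth, while several of the genes between overlapped and changed places. Levels are in CPM per kilobase of the merged exons of GENCODE M21. A gene is understated by this measure where its merged exons hold bases that its expressed transcripts lack. Ccn2 led at 148 ± 24.0 CPM per kb under CDH11-/- and 78.4 ± 20.5 under CDH11+/+ (SD, n = 4 each). Ccn1 followed at 105 ± 14.3 under CDH11-/- and 55.7 ± 5.97 under CDH11+/+, and the libraries of Ccn2 and Ccn1 did not overlap in either group. Ankrd1 at 31.7 and Amotl2 at 29.4 CPM per kb came next under CDH11-/- and overlapped each other, as they did under CDH11+/+, at 21.2 and 21.7, where Ankrd1 also overlapped Ajuba. Crim1, Ajuba and Wwtr1 lay between 17.4 and 18.95 CPM per kb under CDH11-/- and between 16.8 and 17.7 under CDH11+/+, with overlapping neighbours. Yap1 stood at 12.2 CPM per kb under both labels, above Lats2 (10.7 under CDH11-/- and 8.96 under CDH11+/+) and Tead1 (8.90 and 7.96), and did not overlap Lats2. Lats2 and Tead1 overlapped under CDH11+/+ and not under CDH11-/-.

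**Figure D2:**
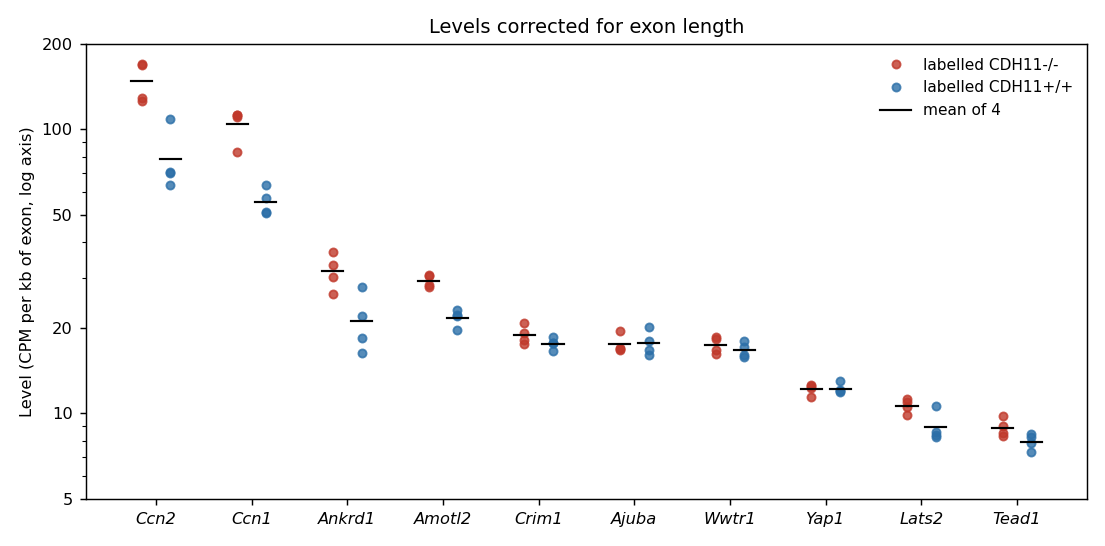
Level of the 10 genes in CPM per kilobase of exon on a log axis, ordered by the mean of the libraries labelled CDH11-/- (red, left) and with those labelled CDH11+/+ (blue, right); points are libraries and bars are means of 4. Ccn2 and Ccn1 stand above the other 8 genes under both labels, with means of 148 and 105 CPM per kb under CDH11-/-.

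The spread between mice of one label was uneven among the members. The coefficient of variation was 16.2% under CDH11-/- and 26.1% under CDH11+/+ for Ccn2, and 14.3% and 23.6% for Ankrd1. For Yap1 it was under 5% in both groups, as given above. After each group mean was taken out, CDH11+/+ replicate 1 was above its group in all 10 genes, most in Ccn2 (0.50 on the log2 scale) and Ankrd1 (0.42). CDH11-/- replicate 2 was below its group in 9 of 10, most in Ccn1 (−0.32), with Tead1 the exception at 0.02. Across the 8 libraries, Pearson's r of these deviations was 0.70 between Ccn1 and Ccn2. The highest values among all pairs of the 10 genes were 0.94 between Ccn2 and Lats2 and 0.92 between Ccn1 and Yap1. These are descriptions over 8 libraries that share their scaling. CDH11+/+ replicate 1 deviated most for Ccn2 and Lats2, and CDH11-/- replicate 2 for Ccn1 and Yap1.

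**Figure D3:**
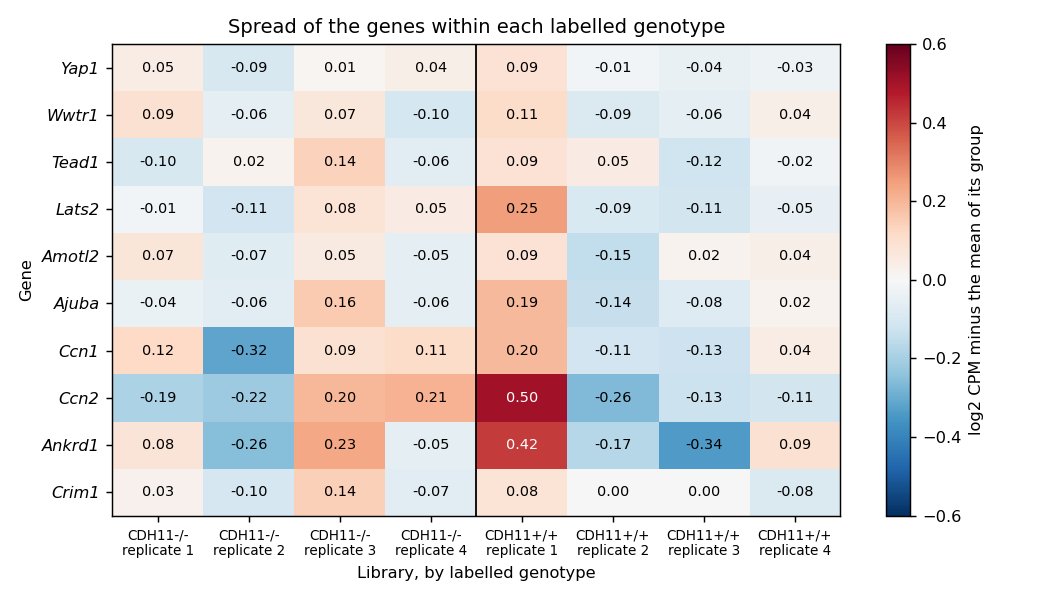
Deviation of each gene (rows) in each library (columns) from the mean of its labelled genotype, in log2 CPM; red is above and blue below the group mean. CDH11+/+ replicate 1 is above its group in all 10 genes and CDH11-/- replicate 2 below it in 9.

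The genes most like Ccn1 and Ccn2 were sought by the same measure among 12175 named genes with a mean of at least 5 CPM. For Ccn2 they were Dcn, which encodes the matrix proteoglycan decorin (r = 0.997 over 8 libraries), Map1a (0.991), Serpinh1, which encodes a collagen chaperone (0.989), and Crispld2 (0.983). For Ccn1 they were Ak5 (0.987), Myc (0.979), Smad5 (0.977) and Rpl14 (0.971). Over the 8 libraries 262 of the 12175 genes exceeded an r of 0.9 with Ccn2 and 99 of them with Ccn1, so such values were not confined to the genes named. These values are a description over few libraries, and their cause was not tested. Between the labelled genotypes 0 of these 8 genes passed the test (edgeR quasi-likelihood, adjusted p = 0.238 to 0.981), where 0.719% of all genes did. Dcn had a log2 fold change of 0.51 ± 0.17 (SE) and Serpinh1 of 0.08 ± 0.08.

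The remaining genes of the pathway, 5 lists of 68 genes in all, were looked up in the fit over all genes. In either direction 0 of the 64 tested passed it (edgeR quasi-likelihood, adjusted p under 0.05), where 0.719% of all genes did. With so small a share, 0 calls among 64 genes does not set them apart. An unadjusted p under 0.05 was reached by 12 of them, 9 higher and 3 lower, where 14.1% of all genes reached it. Other tools called 3 of them with DESeq2 (2.79% of all genes) and 3 with limma-voom (4.28%), listed below by gene. Some genes are cited below as passing without CDH11+/+ replicate 1, a setting where 6.25% of all genes passed in either direction.

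Of 21 Hippo kinase and upstream genes, 0 passed in edgeR, 4 had an unadjusted p under 0.05 (2 higher, 2 lower), and the median log2 fold change was 0.02 beside −0.01 over all genes. Amotl1, an angiomotin like Amotl2, was at 57.8, 52.2, 60.8 and 62.8 CPM under CDH11-/- and 55.8, 38.4, 36.9 and 39.2 CPM under CDH11+/+. Again CDH11+/+ replicate 1 lay with the other label. The log2 difference was 0.46 ± 0.13 (SE; edgeR adjusted p = 0.144), and Amotl1 passed with DESeq2 (adjusted p = 0.0308), with limma-voom (0.00803) and in edgeR without CDH11+/+ replicate 1 (0.62, adjusted p = 0.00242). Mob1b, a co-activator of the LATS kinases, was lower without overlap at 51.5 ± 3.05 CPM under CDH11-/- and 58.4 ± 2.05 CPM under CDH11+/+ (SD, n = 4 each). The difference was −0.18 ± 0.06 in log2 (SE; edgeR adjusted p = 0.236). Genes lower without overlap made up 3.74% of all tested. Frmd6, a cortical protein upstream of the kinases, was at 0.30 ± 0.11 (log2, SE, edgeR adjusted p = 0.265). Without CDH11+/+ replicate 1 it passed (0.44, adjusted p = 0.0169), as did the kinase gene Map4k4 (0.28, adjusted p = 0.0262), named here after its value was seen. Frmd6 also passed with limma-voom (adjusted p = 0.0382).

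Of the other TEAD and Vgll genes 5 were measured well enough to test, and 0 passed in edgeR, DESeq2 or limma-voom, with 2 at an unadjusted p under 0.05 in edgeR. Tead3 was at 41.4, 42.7, 41.6 and 38.3 CPM under CDH11-/- and 32.9, 32.0, 37.7 and 34.7 CPM under CDH11+/+, without overlap. The log2 difference was 0.26 ± 0.07 (SE; edgeR adjusted p = 0.144). Tead2 (0.31 ± 0.13, log2, SE, edgeR adjusted p = 0.294) and Tead4 (0.33 ± 0.22, edgeR adjusted p = 0.534) overlapped. Together with Tead1, each of the 4 TEAD genes had a positive value on the counts. With the authors' normalized values Tead4 was at −0.09 and with their factors as offsets at −0.11, so its sign depended on the scaling.

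Of the 20 other YAP targets 19 were tested, 12 with positive and 7 with negative values (median 0.08). In edgeR 0 passed, 4 had an unadjusted p under 0.05 (3 higher and 1 lower), and 2 passed with DESeq2 and 1 with limma-voom. Ccdc80, a secreted matrix protein gene, was at 121 ± 15.4 CPM under CDH11-/- and 85.7 ± 14.57 under CDH11+/+ (SD, n = 4 each), without overlap. The log2 difference was 0.50 ± 0.13 (SE; edgeR adjusted p = 0.12, DESeq2 adjusted p = 0.00828, limma-voom adjusted p = 0.0366). Without CDH11+/+ replicate 1 it passed in edgeR (0.62, adjusted p = 0.0157). Gadd45b, a stress response gene, was at 39.5 ± 6.51 CPM under CDH11-/- and 28.4 ± 3.61 CPM under CDH11+/+ (SD, n = 4 each), also without overlap. The log2 difference was 0.48 ± 0.12 (SE, edgeR adjusted p = 0.123), and it passed with DESeq2 (adjusted p = 0.0281). F3, which encodes tissue factor, had 0.32 ± 0.13 (log2, SE, edgeR adjusted p = 0.32) with overlapping groups. Nt5e, named here after its value was seen, was the 1 lower. It had −0.38 ± 0.16 (log2, SE, edgeR adjusted p = 0.34), also with overlapping groups.

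The other members of the CCN family were far less abundant. Of 4, 3 were tested and 0 passed in edgeR, DESeq2 or limma-voom, with 1 at an unadjusted p under 0.05 in edgeR. Ccn5 was at 3.53 ± 0.458 CPM under CDH11-/- and 2.34 ± 0.512 under CDH11+/+ (SD, n = 4 each), with overlap. The log2 difference was 0.59 ± 0.22 (SE; edgeR adjusted p = 0.254). Ccn4 was at 24.5 ± 4.18 CPM under CDH11-/- and 19.97 ± 3.33 under CDH11+/+ (0.29 ± 0.14, log2, SE, edgeR adjusted p = 0.382). Ccn3 rested on 11 to 55 counts a library and gave 0.08 ± 0.43 (log2, SE).

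Ccn1 and Ccn2 are also known as genes induced quickly by serum, so genes of that response were set beside them. Of 16 serum response and immediate early genes 0 passed in edgeR, DESeq2 or limma-voom, 1 had an unadjusted p under 0.05 in edgeR, and the median log2 fold change was 0.04. Myl9, a myosin light chain, had 0.24 ± 0.10 (log2, SE, edgeR adjusted p = 0.318) and the transcription factor Srf 0.21 ± 0.10 (edgeR adjusted p = 0.362). Fhl2, a LIM cofactor, had 0.27 ± 0.13 (edgeR adjusted p = 0.384) and passed without CDH11+/+ replicate 1 (0.42, adjusted p = 0.0276).

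**Figure D4:**
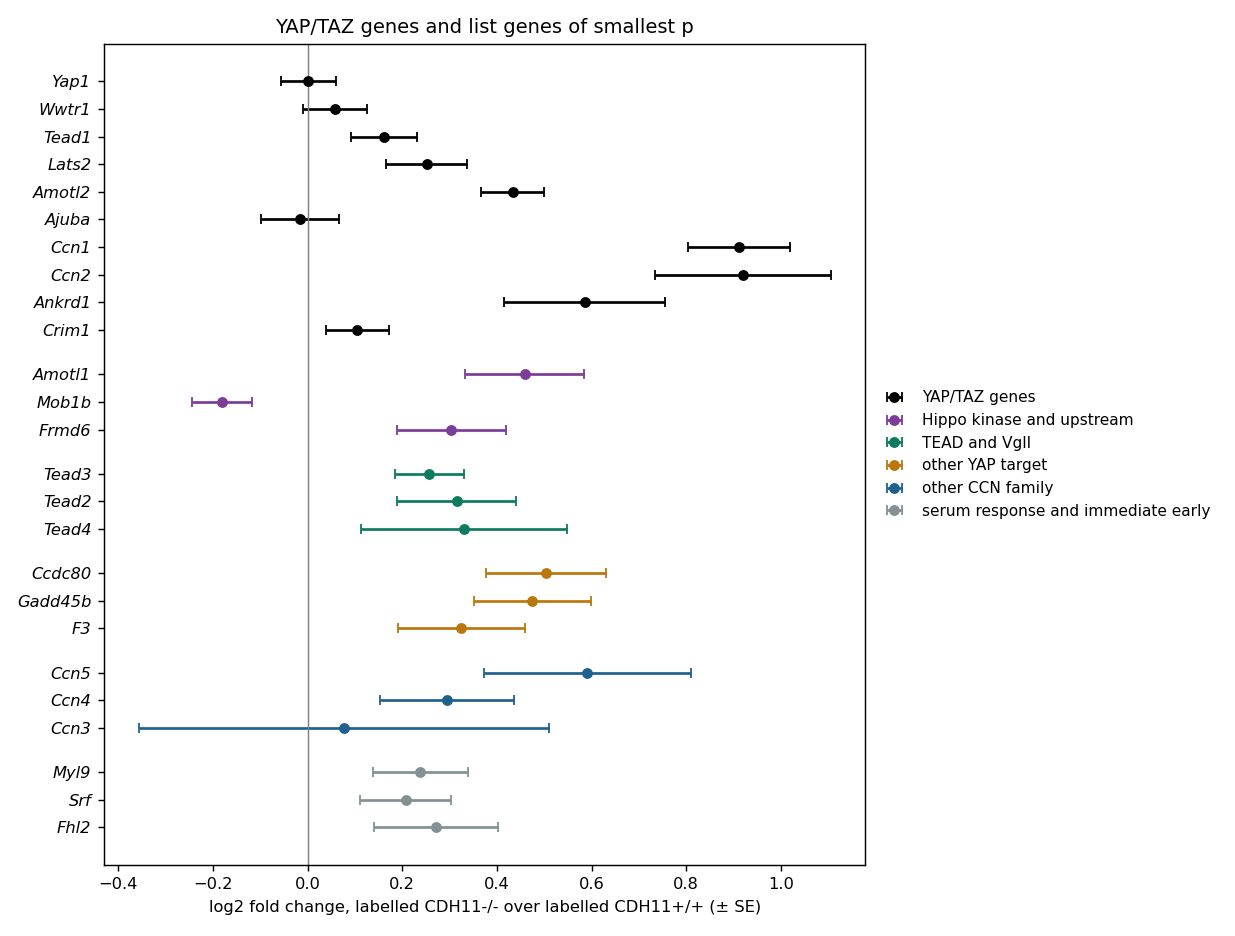
Log2 fold change (± SE, edgeR) of the libraries labelled CDH11-/- over those labelled CDH11+/+, for the 10 genes in black and for the 3 genes of smallest p in each of 5 lists in colour. Ccn1 (0.91) and Ccn2 (0.92) have the highest values shown, and Mob1b (−0.18) the lowest. Other list genes are not shown, among them the YAP target Nt5e (−0.38).

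Whole kidney holds many cell types, and in such samples fewer cells of a type cannot be told apart from less RNA per cell. Summed markers of several types had higher means under CDH11-/-, as Ccn1 and Ccn2 did, and only the endothelial sum was higher without overlap. The summed level of 7 endothelial markers was 412 to 455 CPM under CDH11-/- and 289 to 399 CPM under CDH11+/+, without overlap. All 7 were positive (median log2 fold change 0.34) and 0 passed in edgeR (6 at an unadjusted p under 0.05), while DESeq2 called 3 and limma-voom 6 of the 7. The 7 fibroblast markers summed to 1226 to 1739 CPM under CDH11-/-, against 1519 CPM in CDH11+/+ replicate 1 and 1045 to 1136 CPM in the other CDH11+/+ libraries. Of them 6 were positive (median 0.42), and Pdgfrb was not. The 5 smooth muscle markers summed to 351 to 502 CPM under CDH11-/- and 276 to 452 CPM under CDH11+/+ (5 of 5 positive). The 7 podocyte markers summed to 585 to 714 CPM under CDH11-/- and 439 to 611 CPM under CDH11+/+ (7 of 7 positive). The 6 macrophage markers summed to 3278 to 4159 CPM under CDH11-/- and 2757 to 3804 CPM under CDH11+/+ (6 of 6 positive). Lyz2 made up most of that sum, at means of 2400 CPM under CDH11-/- and 2088 CPM under CDH11+/+. Among the 6, only Cd14 was without overlap (log2 fold change 0.96), and the others lay at 0.02 to 0.20.

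Summed tubule markers stood lower under CDH11-/-. The 7 proximal tubule markers summed to 1116 to 1571 CPM under CDH11-/- and 1791 to 3400 CPM under CDH11+/+, without overlap and with 7 of 7 negative (median −0.80). The 5 markers of injured tubule summed to 904 to 1110 CPM under CDH11-/- and 1133 to 1235 CPM under CDH11+/+, also without overlap, although no single one of the 5 was without overlap. Vcam1, at 380 CPM under CDH11-/- and 523 CPM under CDH11+/+, made up most of the gap, and Havcr1 (0.03) and Krt20 (0.09) had positive log2 fold changes. In fibroblast, smooth muscle, endothelial, podocyte and macrophage markers CDH11+/+ replicate 1 was the highest of its group, as it was for Ccn1 and Ccn2, and in proximal tubule markers it was the lowest. In injured tubule markers it was also the highest of its group, at 1235 CPM, which lies away from the libraries labelled CDH11-/-. None of these markers was at 0 in all libraries. In edgeR 0 of the 44 passed, where 0.719% of all genes did. DESeq2 called 13 of them and limma-voom 17 (5 and 3 of the proximal tubule markers), where 2.79% and 4.28% of all genes were called. The part of cell composition in the levels of Ccn1 and Ccn2 was not tested.

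**Figure D5:**
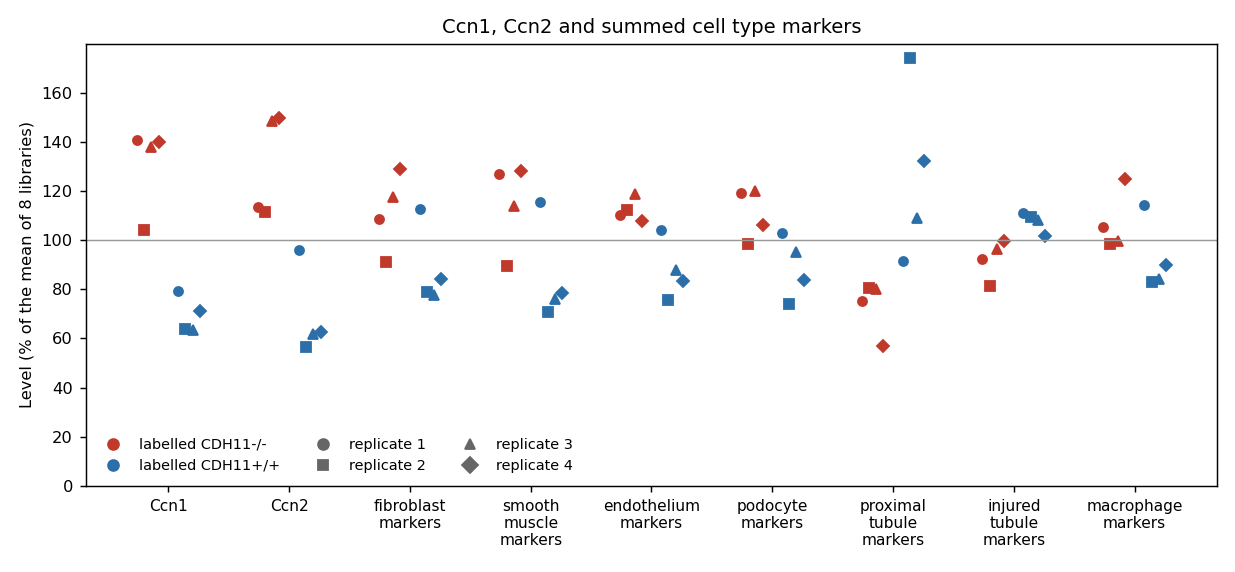
Ccn1, Ccn2 and the summed level of 7 marker lists in each library, as a percentage of the mean of the 8 libraries, for the label CDH11-/- (red, left) and CDH11+/+ (blue, right); symbols stand for replicates. Endothelial markers separate the labels as Ccn1 and Ccn2 do, proximal tubule markers separate them in the other direction, and CDH11+/+ replicate 1 (blue circle) lies toward the red points in most lists.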

How the data were processed

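The authors deposited whole-number counts per Ensembl gene and a second table of normalized values, a signal in units of normalized counts. The submitters' processing notes name mm10, DRAGEN and DESeq2, without versions, annotation or counting mode. Per the labels' protocols the library kit kept strand. Names, coordinates and exon lengths came from GENCODE M21 (GRCm38), which named all 42256 identifiers. There were 0 columns of other samples. Samples were grouped by the labelled genotype; the labels give no batch, and replicate numbers follow the order of deposit.

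Counts were tested with edgeR 4.0.16 (R 4.3.3; quasi-likelihood, robust moderation, TMM scaling, edgeR's filter on low counts, genotype as the only term) and adjusted by Benjamini-Hochberg over the 15852 genes kept. The SE of a log2 fold change is its size over the square root of F. The common biological coefficient of variation was 13.5%. The fit was tested on simulated data for 15852 genes and recovered 79 of 100 genes changed 2-fold and 97 of 100 changed 4-fold, with 8 false calls. The simulation drew each gene independently and held no outlying library, so these rates need not hold for the data. Members, lists, tests and alternatives were chosen with earlier results of these data known. Named genes are the 10 members, the 3 of lowest p in every list where 0 passed, the 4 genes most like Ccn1 and Ccn2 within groups (log2 CPM with a prior count of 2), and Cdh11. Map4k4 and Nt5e were added after their values were seen. Vgll1, Vgll2, Foxf2 and Ccn6 had too few counts to be tested. Alternatives were no filter, size factors of DESeq2, scaling by library size, DESeq2 1.42.0, limma-voom with quality weights (limma 3.58.1), limma on the deposited normalized values (log2, pseudocount 1), the authors' gene-wise factors as offsets, and leaving out each library.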

Additional observations from a re-analysis of the deposited data

Results flagged for a closer look

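A sample was singled out where its gap to the nearest library of its group, as a share of the group's range, exceeded the 95% critical value of Dixon's test. Of 82 groups of 4 examined 9 were singled out, and chance gives about 5%. Of the 9, those of Dcn, Serpinh1 and Myc follow from how these genes were chosen, by their likeness to Ccn2 or Ccn1 within groups. Without the genes chosen in that way 6 of 66 groups were singled out, 3 of them by CDH11+/+ replicate 1. Over all 82, in 5 of the 9 the library was CDH11+/+ replicate 1, the highest of its group. It was at 311 CPM for Ccn2 (183 to 203 in the others labelled CDH11+/+), 74.0 CPM for Lats2 (57.5 to 60.1), 55.8 CPM for Amotl1 (36.9 to 39.2), 116 CPM for Dcn (73.3 to 79.0) and 385 CPM for Serpinh1 (318 to 328). CDH11-/- replicate 2 was the lowest of its group for Ccn1, at 168 CPM where the others were at 223 to 228, and for Myc, at 29.0 CPM where they were at 37.6 to 39.4. CDH11-/- replicate 3 was the highest for Ajuba, at 71.1 CPM beside 61.1 to 62.1, and the lowest for Ccn5, at 2.85 CPM beside 3.71 to 3.81.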

How the results depend on the processing

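The log2 fold changes of Ccn1 and Ccn2 kept their sign and moved by less than the spread between replicates in all 15 alternatives, from 0.87 to 1.01 and from 0.83 to 1.13. Of the others, Ajuba and Yap1 changed sign around 0 in some alternatives (−0.06 to 0.06 and −0.01 to 0.05). The 114 genes past the threshold became 208 with no filter, 515 with DESeq2, 679 with limma-voom, 54 with limma on the authors' values and 50 with their factors as offsets, and 26 to 1004 when 1 library was left out (26 without CDH11+/+ replicate 4, 1004 without CDH11+/+ replicate 1). Among the 10 members the count of 2 became 4 (DESeq2), 5 (limma-voom), 1 (authors' values), 1 (their factors) and 1 to 5 with a library left out; this count was added after seeing the data. Amotl2 was no longer past the threshold without CDH11+/+ replicate 2 (0.39) or 4 (0.44) or CDH11-/- replicate 1 (0.42) or 3 (0.42), nor with the authors' values (0.42) or factors (0.42), and Ccn2, Ankrd1 and Lats2 came past it without CDH11+/+ replicate 1 and with limma-voom, Ccn2 and Ankrd1 also with DESeq2. The 0 Hippo kinase and upstream genes became 1 (DESeq2), 2 (limma-voom) and 0 to 3 with a library left out, the 0 other YAP targets 2, 1 and 0 to 1, and the 0 serum response genes 0 to 1; the TEAD and other CCN counts were 0 throughout. Causes were not tested. No paired analysis was possible because the labels give no number shared between the groups. Genes near 2 CPM, such as Ccn3 and Tead4, rest on few counts.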

Other observations

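The authors' normalized values, which scale each gene in each library by its own factor, kept the difference of Ccn1 and Ccn2 and not that of Cdh11. Ccn1 averaged 2939.8 under CDH11-/- and 1551 under CDH11+/+, and Ccn2 averaged 5966 under CDH11-/- and 3064 under CDH11+/+. On log2 of these values the fold changes were 0.92 and 0.98. For Cdh11 the averages were 1222 under CDH11-/- and 1036 under CDH11+/+, and the log2 fold change was 0.26 (limma, adjusted p = 0.524), beside 0.69 ± 0.11 (SE, edgeR adjusted p = 0.0243) on the counts. In edgeR Cdh11 no longer passed without CDH11+/+ replicate 2 (log2 fold change 0.65, adjusted p = 0.0808), 3 (0.68, 0.0659) or 4 (0.66, 0.112), or without CDH11-/- replicate 3 (0.65, 0.0688) or 4 (0.64, 0.0525), with the fold change little altered.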
